A study of Mus musculus with 8 samples.

Results

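The genes described here are those of 7 solute carrier families whose best known members move amino acids across membranes. They are the Slc1a, Slc3a, Slc6a, Slc7a, Slc36a, Slc38a and Slc43a genes, chosen by the start of their symbol, and 33 of the 12211 genes in the count table met the rule. All 33 had enough counts to be tested, among 11909 genes tested. Levels were measured by RNA sequencing in mouse embryonic fibroblasts, the connective tissue cells that grow out of cultured embryos, of genotype WT (4 libraries titled control) or PUS10KO (4 libraries titled PUS10KO). PUS10 makes pseudouridine in RNA. Both were grown in the same DMEM medium with fetal bovine serum and penicillin-streptomycin. The labels give no mouse strain, age, knockout method or number of lines, so each genotype may be 1 line, and separate cultures are not stated either. The p-values thus cover only how these samples vary among themselves, which may be technical variation.

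Amino acids enter cells and leave organelles through carriers that differ in what they take and in what drives them. Most Slc1 and Slc38 carriers are driven by sodium and load the cell with glutamate, glutamine and small neutral amino acids. Many Slc7 carriers are exchangers that work only when bound to the heavy chain encoded by Slc3a2 (CD98), and they trade such loaded amino acids for leucine, arginine or cystine. Slc36a1, Slc38a7 and Slc38a9 act on lysosomes, where amino acids from degraded protein are released and sensed by the mTORC1 kinase complex. Several carrier genes are raised by the transcription factor ATF4 when amino acids run short.

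Total counts ran from 17561114 to 24563499 per library. The 33 genes held 0.1746% to 0.2098% of them in control and 0.2249% to 0.252% in PUS10KO, ranges that did not overlap. This share follows the genes with most counts and does not describe the 33 genes one by one. Slc38a2 had 21932 counts in control and 29923 in PUS10KO, and Slc38a4 1482 and 8060. By log2 fold change 16 of the 33 genes were higher in PUS10KO and 17 lower. Pus10, the targeted gene, was at 46.1 ± 6.46 CPM in control against 13.8 ± 1.5997 CPM in PUS10KO (mean ± SD, n = 4), where CPM is a gene's count over its library's TMM-scaled total, scaled up. All 14 fibroblast markers were counted, with summed levels of 18598 to 23227 CPM in control and 11726 to 17258 CPM in PUS10KO. Of these 14, 6 fell and 0 rose, beside 7.11% lower and 5.9% higher of all genes tested. Thy1 was among the 6 that fell, with a mean of 21.8 CPM in control and 0.0237 CPM in PUS10KO. Among those that did not pass, Pdgfra was higher in PUS10KO, with means of 49.8 CPM in control and 100.75 CPM in PUS10KO (edgeR adjusted p = 0.0605). Eif2s3y, on the Y chromosome, had 5989 counts in PUS10KO and 0 in control, so sex chromosome content and genotype went together and cannot be told apart. Among chromosomes with at least 20 tested genes, the median between genotypes ran from a log2 fold change of -0.60 over 405 genes of chromosome 12 to 0.20 over 395 genes of the X chromosome. In these bulk samples fewer cells of a type and less RNA per cell cannot be told apart.

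Of the 64 protein-coding genes that the GENCODE M21 annotation (GRCm38) gives for these families, 33 were analysed here. They are all 3 Slc43a genes, 6 of 7 Slc1a, 9 of 16 Slc7a, 7 of 11 Slc38a, 2 of 4 Slc36a, 1 of 2 Slc3a and 5 of 21 Slc6a genes. Slc7a6os, counted here with the Slc7a genes, is named for its place on the opposite strand beside Slc7a6 and does not encode a solute carrier. Slc43a3 encodes a carrier of purine nucleobases, unlike its family members Slc43a1 and Slc43a2. The libraries were made with a stranded kit, but no source used here gives the strand setting of the counting. By the annotation 10 of the 33 genes share exonic bases with a gene on the opposite strand, from which their counts cannot be told apart with certainty: Slc1a1, Slc1a2, Slc6a6, Slc6a9, Slc7a2, Slc7a4, Slc7a7, Slc38a9, Slc38a10 and Slc43a2.

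Divided by exonic length, so that genes can be compared, levels in control cells spanned more than 3 orders of magnitude, and the most abundant transcript was the shared heavy chain. Slc3a2 stood at 62.9 ± 7.01 CPM per kb (mean ± SD, n = 4), above the others in all 4 control libraries. Next came Slc38a10, a broadly expressed member of the SNAT family, at 38.2 ± 4.51 CPM per kb, Slc7a5 (LAT1, the leucine exchanger) at 32.98 ± 4.72 CPM per kb, Slc38a2 (SNAT2) at 31.4 ± 5.68 CPM per kb and Slc1a5 (ASCT2, a glutamine exchanger) at 29.1 ± 6.49 CPM per kb. These 4 overlapped one another within their spread. Slc1a4 (ASCT1, for serine, alanine and cysteine), the taurine carrier Slc6a6, the y+LAT2 gene Slc7a6 and the creatine carrier Slc6a8 followed at 16.5 to 23.1 CPM per kb, and also overlapped. At the low end were the proline carrier Slc6a7, Slc7a4 and Slc43a2 at 0.253 to 0.285 CPM per kb, and Slc1a2, the glutamate carrier of astrocytes, at 0.03199 ± 0.00652 CPM per kb.

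**Figure D1:**
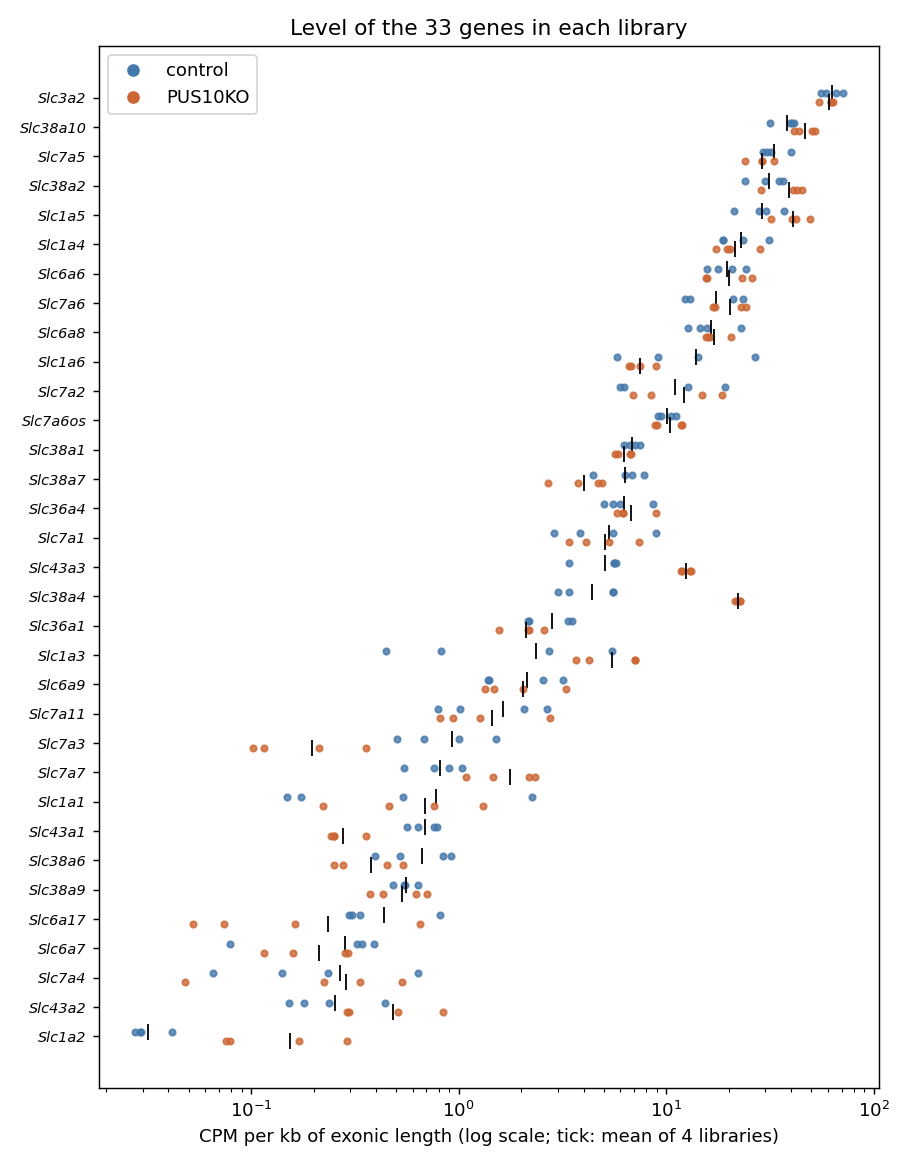
Level of each of the 33 genes in CPM per kb of exonic length, on a log axis, with 1 point for each of 4 control (blue) and 4 PUS10KO (orange) libraries and a tick at each mean; genes are ordered by their control mean. Slc3a2 stands highest in both genotypes, and the points of Slc38a4 and Slc43a3 lie apart between genotypes.

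Between genotypes 4 of the 33 genes rose in PUS10KO, 2 fell and 27 did not pass the test, where passing means an adjusted p under 0.05 by edgeR's quasi-likelihood test over all genes tested. The 6 called genes are 18.2% of the 33, beside 13% of all genes tested (5.9% higher, 7.11% lower). Slc38a4, Slc43a3, Slc1a2 and Slc7a7 rose, and Slc7a3 and Slc43a1 fell. For these same 6 genes, again 18.2%, the control and PUS10KO values did not overlap, which held for 20.3% of all genes tested. All 6 also changed at least 2-fold, and 8% of all genes tested met both criteria. The median log2 fold change of the 33 genes was -0.049, beside 0.0086 for all genes tested, and the medians of the absolute log2 fold change were 0.29 and 0.26.

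Promoters are shown for the members whose windows hold the core letters of the ATF4 response element, and for Slc38a4, so that these letters can be read beside the levels. Windows of 300 bases, from 250 bases before to 50 after a RefSeq transcript start (GRCm38.p6), were found for 23 of the 33 genes, 35 windows in all. The core letters of the element, TGATGNAA, were searched on both strands and are in capitals, where N is any base. They were found in 4 of the 35 windows (11.4%), from 3 genes, and in 3.97% of 32851 windows of all genes and 2.18% of those of tested genes. Sequences run 5′ to 3′ on the strand of the gene, all minus.
Slc7a11, chr3:50443564-50443863: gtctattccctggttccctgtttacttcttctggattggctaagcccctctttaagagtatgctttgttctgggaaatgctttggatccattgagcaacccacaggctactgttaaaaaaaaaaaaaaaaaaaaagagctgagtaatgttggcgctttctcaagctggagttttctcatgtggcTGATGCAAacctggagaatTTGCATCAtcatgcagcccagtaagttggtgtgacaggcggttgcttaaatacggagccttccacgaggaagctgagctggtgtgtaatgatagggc
Slc1a4, chr11:20332664-20332963: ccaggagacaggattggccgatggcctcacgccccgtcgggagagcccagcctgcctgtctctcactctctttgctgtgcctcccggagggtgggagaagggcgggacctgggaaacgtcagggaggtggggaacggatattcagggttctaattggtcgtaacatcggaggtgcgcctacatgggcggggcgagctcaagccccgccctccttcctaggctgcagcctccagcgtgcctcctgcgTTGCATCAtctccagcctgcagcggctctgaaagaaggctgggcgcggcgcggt
Slc7a7, chr14:54417895-54418194: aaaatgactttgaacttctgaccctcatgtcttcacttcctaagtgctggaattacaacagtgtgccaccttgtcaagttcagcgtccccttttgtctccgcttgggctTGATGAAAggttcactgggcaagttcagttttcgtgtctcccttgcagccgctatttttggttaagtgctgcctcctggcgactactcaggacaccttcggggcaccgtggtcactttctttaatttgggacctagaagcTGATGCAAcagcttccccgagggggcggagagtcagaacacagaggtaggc
Slc38a4, chr15:97055907-97056206: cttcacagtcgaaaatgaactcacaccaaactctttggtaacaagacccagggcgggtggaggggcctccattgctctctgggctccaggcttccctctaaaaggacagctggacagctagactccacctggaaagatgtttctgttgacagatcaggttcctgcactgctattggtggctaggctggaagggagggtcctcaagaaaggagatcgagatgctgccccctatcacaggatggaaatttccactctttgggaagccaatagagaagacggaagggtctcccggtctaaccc
The Slc7a11 window holds the letters at 2 places, whose first letters are 66 and 47 bases before the start. The Slc1a4 window holds them 4 bases before the start, and the Slc7a7 window 141 bases and 1 base before it. A second Slc7a7 window, which overlaps the printed one, holds the nearer of these places again. The Slc38a4 window, that of the most upstream of 3 starts, has none. Of these 4 genes Slc38a4 and Slc7a7 rose, while Slc7a11 and Slc1a4 did not pass the test. Of the other called genes, Slc1a2 and Slc43a1 have windows without these letters, and no window was found for Slc43a3 and Slc7a3. A match describes letters and does not show that ATF4 binds there. The antioxidant response core TGACNNNGC was in 8 windows of the 33 genes (22.9%, beside 12.4% of all windows and 14.2% of those of tested genes), and the E-box CACGTG in 4 (11.4%, beside 7.15% and 9.93%); the windows printed above hold neither.

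Slc38a4 had the lowest adjusted p of the 33 genes. It encodes SNAT4, a sodium-coupled carrier of neutral and cationic amino acids that is known from liver and placenta and is an imprinted gene in mouse (ENSMUSG00000022464.14, chromosome 15, 96994820 to 97055956, minus strand). It had 12.8, 14.6, 23.7 and 23.6 CPM across control libraries 1 to 4, against 91.3, 96.1, 92.998 and 96.5 CPM across PUS10KO libraries 1 to 4. The 4 PUS10KO libraries lay close together and far above every control library, while control libraries 3 and 4 were above control 1 and 2. The means were 18.7 ± 5.77 CPM in control against 94.2 ± 2.49 CPM in PUS10KO (mean ± SD, n = 4), and the log2 fold change was 2.34 (SE 0.22, edgeR adjusted p = 0.000303). Omitting any single library gave 2.20 to 2.48, and the call held in all 8 of those fits. On the scale per length, Slc38a4 went from 18th to 6th of the 33 genes, at 22.1 ± 0.584 CPM per kb in PUS10KO.

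Slc38a4 lies beyond Slc38a2 and Slc38a1 on chromosome 15, with no other protein-coding gene between them in the annotation, and these neighbours did not pass the test. Slc38a1 (SNAT1, a glutamine carrier) had 129, 121, 116 and 108 CPM across control libraries 1 to 4, against 116, 117, 97.8 and 101 CPM across PUS10KO libraries 1 to 4. Its groups overlapped, with a log2 fold change of -0.13 (95% confidence interval -0.39 to 0.13, edgeR adjusted p = 0.512). Slc38a2, the carrier that adapts to amino acid supply, had 212, 266, 324 and 308 CPM across control libraries 1 to 4, against 252, 360.5, 376 and 399 CPM across PUS10KO libraries 1 to 4. It was higher in PUS10KO in each of the 4 pairs of the same number, by 0.25, 0.44, 0.21 and 0.37 on the log2(CPM + 0.5) scale. Its log2 fold change was 0.32 (95% confidence interval -0.10 to 0.75, edgeR adjusted p = 0.318, or 0.0128 with the block).

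The block is the replicate number of the labels as a term in the fit. Libraries of the same number deviated together from their genotype means, so this fit treats libraries of 1 number as a pair. The test behind the calls given above had genotype as its only term and did not use the pairs. With the block 9 of the 33 genes rose and 6 fell, 45.5%, beside 39% over all genes tested (19.1% higher, 19.9% lower). The 6 genes called without the block were among these 15. In 17 of the 33 genes (51.5%) all 4 pairs of the same number differed in 1 direction, as in 55.3% of all genes tested.

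**Figure D2:**
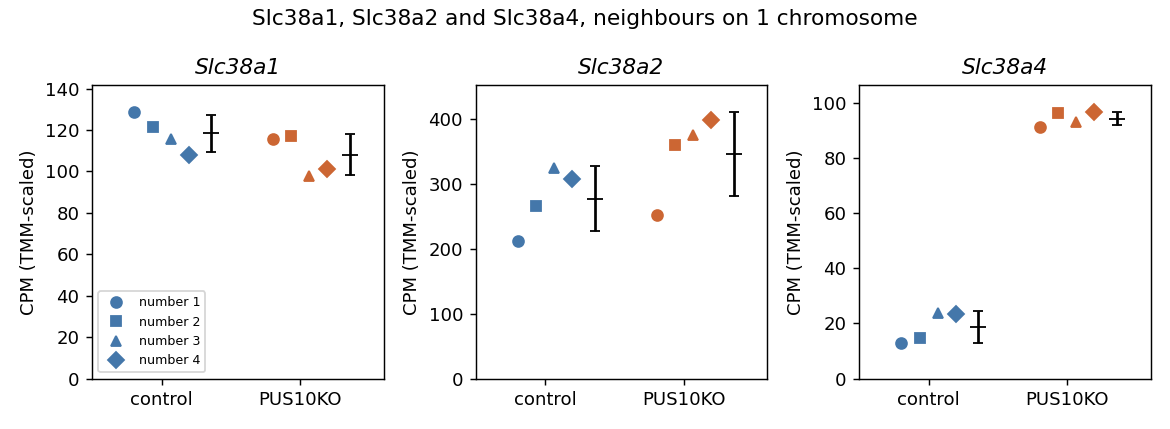
CPM of Slc38a1, Slc38a2 and Slc38a4 in the 4 control (blue) and 4 PUS10KO (orange) libraries, with the library number given by the marker shape and the mean ± SD in black. The groups overlap for Slc38a1 and Slc38a2, while the PUS10KO values of Slc38a4 lie between 91.3 and 96.5 CPM, above every control value.

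The other Slc38a genes did not pass the test without the block. Slc38a7, which exports glutamine from lysosomes, had 26.4 ± 5.898 CPM in control against 16.6 ± 4.18 CPM in PUS10KO (mean ± SD, n = 4). It was lower in all 4 pairs, with a log2 fold change of -0.67 (edgeR adjusted p = 0.105, or 0.00168 with the block). Slc38a6 had 5.21 ± 1.97 CPM in control against 2.96 ± 1.09 CPM in PUS10KO (mean ± SD, n = 4) and a log2 fold change of -0.82 (edgeR adjusted p = 0.195, or 0.00592 with the block). It lies on chromosome 12, and with the median of that chromosome taken off, its log2 fold change was -0.22 (edgeR adjusted p = 0.826). Slc38a10 had 245 ± 28.95 CPM in control against 301 ± 32.5 CPM in PUS10KO (mean ± SD, n = 4), a log2 fold change of 0.29 (edgeR adjusted p = 0.207, or 0.0173 with the block). Slc38a9, which signals lysosomal arginine to mTORC1, had a log2 fold change of -0.057 (95% confidence interval -0.58 to 0.46), and neither fit called it.

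Of the Slc43a genes Slc43a3 rose and Slc43a1 fell. Slc43a3 (ENSMUSG00000027074.14, chromosome 2, 84936579 to 84958509, plus strand) had 15.2, 24.95, 25.4 and 25.04 CPM across control libraries 1 to 4, against 58.1, 58.8, 52.6 and 53.4 CPM across PUS10KO libraries 1 to 4. Control 1 was lower than the other controls, and every PUS10KO library was above every control. The means were 22.7 ± 4.99 CPM in control against 55.7 ± 3.2005 CPM in PUS10KO (mean ± SD, n = 4), and the log2 fold change was 1.30 (SE 0.17, edgeR adjusted p = 0.0018). Slc43a1, which encodes the leucine carrier LAT3, lies on the same strand 72984 bases upstream, with 1 protein-coding gene between (ENSMUSG00000027075.16, chromosome 2, 84838850 to 84863594, plus strand). It had 4.33, 3.23, 4.48 and 3.64 CPM across control libraries 1 to 4, against 1.43, 1.39, 1.44 and 2.06 CPM across PUS10KO libraries 1 to 4. All 4 PUS10KO libraries were below all controls, with means of 3.92 ± 0.589 CPM in control against 1.58 ± 0.319 CPM in PUS10KO (mean ± SD, n = 4), and the log2 fold change was -1.31 (SE 0.25, edgeR adjusted p = 0.00833). Both calls survived the omission of any single library. The third member, Slc43a2 (LAT4), had 2.38, 4.43, 1.803 and 1.53 CPM across control libraries 1 to 4, against 8.48, 5.13, 2.91 and 2.98 CPM across PUS10KO libraries 1 to 4. It was higher in PUS10KO in each pair, but libraries 1 and 2 of either genotype were above libraries 3 and 4 of the same genotype. Its log2 fold change was 0.94 (95% confidence interval -0.097 to 1.98, edgeR adjusted p = 0.235, or 0.0281 with the block).

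Among the carriers of cationic amino acids, Slc7a3 fell. It encodes CAT3, an arginine and lysine carrier (ENSMUSG00000031297.14, chromosome X, 101079210 to 101086020, minus strand). It had 3.796, 1.92, 2.58 and 5.75 CPM across control libraries 1 to 4, against 0.386, 0.438, 0.802 and 1.35 CPM across PUS10KO libraries 1 to 4, from 283 counts in control and 62 in PUS10KO. The groups did not overlap, and both were low. The means were 3.51 ± 1.68 CPM in control against 0.745 ± 0.446 CPM in PUS10KO (mean ± SD, n = 4), and the log2 fold change was -2.24 (SE 0.50, edgeR adjusted p = 0.0188). The edgeR adjusted p was 0.0554 without PUS10KO 2 and 0.0543 without PUS10KO 3. The log2 fold change ran from -2.67 to -1.88 over the 8 fits that omitted a library. Slc7a3 had enough counts to be tested only through its control libraries, the group where it is high. With no filter on low counts its log2 fold change was -2.24 (edgeR adjusted p = 0.018). Slc7a3 is X-linked, and the X chromosome's median log2 fold change was 0.20. Slc6a8, the other X-linked gene of the 33, had 85.96 ± 23.4 CPM in control against 88.6 ± 11.9 CPM in PUS10KO (mean ± SD, n = 4) and a log2 fold change of 0.044 (edgeR adjusted p = 0.919).

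The more abundant cationic carriers Slc7a1 (CAT1) and Slc7a2 (CAT2) were parted by library number. Slc7a2 had 57.04, 54.7, 116 and 176 CPM across control libraries 1 to 4, against 63.1, 77.1, 136 and 169 CPM across PUS10KO libraries 1 to 4. Libraries 3 and 4 of both genotypes were above libraries 1 and 2 of both. Slc7a1 had 103, 63.9, 44.5 and 33.3 CPM across control libraries 1 to 4, against 85.3, 61.3, 39.4 and 47.4 CPM across PUS10KO libraries 1 to 4. Here libraries 3 and 4 of both genotypes were below libraries 1 and 2. The log2 fold change between genotypes was 0.14 for Slc7a2 (95% confidence interval -0.86 to 1.14) and -0.068 for Slc7a1 (-0.89 to 0.76), and neither fit called them. Slc7a4, a relative of these genes whose transport is not established, had 91 counts in control and 96 in PUS10KO, and was also higher in libraries 3 and 4.

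Of the light chains that pair with the Slc3a2 heavy chain, 1 of 4 rose, beside 5.9% of all genes tested. Slc7a7 encodes y+LAT1, which exports arginine and lysine in exchange for neutral amino acids (ENSMUSG00000000958.10, chromosome 14, 54369442 to 54417780, minus strand). It had 3.46, 1.81, 2.52 and 2.97 CPM across control libraries 1 to 4, against 4.85, 3.58, 7.22 and 7.74 CPM across PUS10KO libraries 1 to 4. The lowest PUS10KO library was just above the highest control. The means were 2.69 ± 0.701 CPM in control against 5.85 ± 1.97 CPM in PUS10KO (mean ± SD, n = 4), and the log2 fold change was 1.12 (SE 0.32, edgeR adjusted p = 0.0497). When single libraries were omitted, the call held in 1 of 8 fits, the one without PUS10KO 2 (edgeR adjusted p = 0.032), and was lost in the other 7 (up to 0.133). With the block the adjusted p was 0.00415 by edgeR. Slc7a7 shares 232 of its 3315 exonic bases with Oxa1l on the opposite strand, which had 52.5 CPM in control and 58.9 CPM in PUS10KO. Slc7a7 is also known from macrophages. Of 10 leukocyte markers 4 were tested, and 1 of them, Cd14, rose, from 3.09 to 12.8 CPM. Cd68, Csf1r and Lyz2 stood at 1.44 to 2.94 CPM in control and 1.16 to 1.88 CPM in PUS10KO, and the summed level of the 4 was 7.55 to 12.4 CPM in control and 13.8 to 20.2 CPM in PUS10KO. The part of such cells in the change of Slc7a7 was not tested.

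The heavy chain gene Slc3a2 had 196, 251, 208 and 232 CPM across control libraries 1 to 4, against 226, 220.0, 193 and 219.9 CPM across PUS10KO libraries 1 to 4. Its groups overlapped, and its log2 fold change of -0.049 had a 95% confidence interval of -0.32 to 0.22. Slc7a5 (LAT1) had 122 ± 17.5 CPM in control against 107 ± 13.8 CPM in PUS10KO (mean ± SD, n = 4), and a log2 fold change of -0.20 (95% confidence interval -0.52 to 0.13, edgeR adjusted p = 0.441). Slc7a6 had 79.7 ± 25.6 CPM in control against 92.9 ± 17.6 CPM in PUS10KO (mean ± SD, n = 4), and a log2 fold change of 0.22 (edgeR adjusted p = 0.617). Slc7a6os had a log2 fold change of 0.049 (edgeR adjusted p = 0.871). The summed level per length of Slc7a5, Slc7a6, Slc7a7 and Slc7a11, divided by that of Slc3a2, was 0.961, 0.934, 0.794 and 0.6798 across control libraries 1 to 4 and 0.877, 0.962, 0.803 and 0.796 across the PUS10KO ones, so the ranges of the genotypes overlapped.

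Slc7a11 (xCT), the cystine and glutamate exchanger that supplies glutathione synthesis, varied several-fold within each genotype. It had 11.05, 36.99, 14.2 and 28.7 CPM across control libraries 1 to 4, against 17.7, 38.3, 11.3 and 13.2 CPM across PUS10KO libraries 1 to 4. Library 2 was the highest of both genotypes, and pairs 1 to 4 differed by 0.65, 0.051, -0.31 and -1.10 on the log2(CPM + 0.5) scale. The log2 fold change between genotypes was -0.17 (95% confidence interval -1.27 to 0.92, edgeR adjusted p = 0.863), an interval that holds a 2-fold fall as well as no change.

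Of the Slc1a genes, Slc1a2 rose from a very low level. Slc1a2 (GLT-1, ENSMUSG00000005089.15, chromosome 2, 102658659 to 102790784, plus strand) had 33 counts in control and 167 in PUS10KO, or 0.389, 0.547, 0.361 and 0.383 CPM across control libraries 1 to 4, against 0.992, 1.03, 2.24 and 3.79 CPM across PUS10KO libraries 1 to 4. PUS10KO 3 and 4 were the highest, and no PUS10KO library was as low as any control. The means were 0.4201 ± 0.0857 CPM in control against 2.01 ± 1.32 CPM in PUS10KO (mean ± SD, n = 4), and the log2 fold change was 2.24 (SE 0.51, edgeR adjusted p = 0.0194). The edgeR adjusted p was up to 0.0567 in the fits without control 3 or PUS10KO 3, and the call held in the other 6. Slc1a2 had enough counts to be tested only through its PUS10KO libraries, the group where it is high. With no filter on low counts its log2 fold change was 2.24 (edgeR adjusted p = 0.0181). Slc1a2 remained the lowest of the 33 genes per length in PUS10KO, at 0.153 ± 0.1003 CPM per kb.

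The other glutamate carriers did not pass the test without the block. Slc1a3 (GLAST) had 3.796, 7.005, 23.2 and 46.6 CPM across control libraries 1 to 4, against 31.2, 36.4, 60.1 and 60.3 CPM across PUS10KO libraries 1 to 4. The controls spanned more than 10-fold, and only control 4 reached the PUS10KO range. The log2 fold change was 1.22 (SE 0.67, edgeR adjusted p = 0.293), and 1.68 with the block (edgeR adjusted p = 0.00826). Without control 4 it was 2.06 and without control 1 0.87, in fits without the block (edgeR adjusted p = 0.0676 and 0.398), and libraries 1 and 2 only gave 2.66 (edgeR adjusted p = 0.0278). The 4 pairs differed by 2.88, 2.30, 1.35 and 0.37 on the log2(CPM + 0.5) scale. Slc1a2 and Slc1a3 are known from astrocytes. Of 11 neural and glial markers 3 were tested, and 1 of them, Nes, fell, beside 7.11% lower of all genes tested. Summed levels of the 3 were 165 to 239.99 CPM in control and 66.6 to 94.5 CPM in PUS10KO. The glial markers Gfap, Aqp4, Sox10 and Olig2 were not analysed here, so the part of glial cells in these values was not tested.

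Slc1a1 (EAAC1, a glutamate and cysteine carrier) differed between genotypes in opposite ways in different pairs. It had 18.5, 4.43, 1.24 and 1.44 CPM across control libraries 1 to 4, against 10.9, 1.83, 3.799 and 6.28 CPM across PUS10KO libraries 1 to 4. In pairs 1 and 2 it was lower in PUS10KO and in pairs 3 and 4 higher, with differences of -0.75, -1.08, 1.31 and 1.81 on the log2(CPM + 0.5) scale. The log2 fold change was -0.18 (95% confidence interval -2.16 to 1.80, edgeR adjusted p = 0.927). Of its 8257 exonic bases 2631 are shared with 4430402I18Rik on the opposite strand. Slc1a6 (EAAT4) had 30.5, 57.6, 19.6 and 12.4 CPM across control libraries 1 to 4, against 19.2, 14.6, 16.2 and 14.2 CPM across PUS10KO libraries 1 to 4. Control 2 was the highest and control 4 below every PUS10KO library, with a log2 fold change of -0.91 (edgeR adjusted p = 0.204, or 0.102 with the block). Without control 2 it was -0.38 and without control 4 -1.15 (edgeR adjusted p = 0.46 and 0.065).

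Per length, the exchangers of neutral amino acids in this family had higher control means than its glutamate carriers. Slc1a5 and Slc1a4 had 29.1 ± 6.49 and 23.1 ± 5.88 CPM per kb (mean ± SD, n = 4). Slc1a6, the most abundant glutamate carrier in control, had 13.96 ± 9.22 CPM per kb. Its control values reached 26.8 CPM per kb, within the control range of both exchangers. Slc1a5 (ASCT2) had 154, 88.2, 117 and 126 CPM across control libraries 1 to 4, against 169, 133, 176 and 205 CPM across PUS10KO libraries 1 to 4. It was higher in PUS10KO in each pair and the groups overlapped, with a log2 fold change of 0.49 (95% confidence interval 0.057 to 0.93, edgeR adjusted p = 0.141, or 0.00611 with the block). Slc1a4 (ASCT1) had 90.5 ± 23.1 CPM in control against 84.2 ± 18.7 CPM in PUS10KO (mean ± SD, n = 4), and a log2 fold change of -0.10 (edgeR adjusted p = 0.804).

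**Figure D3:**
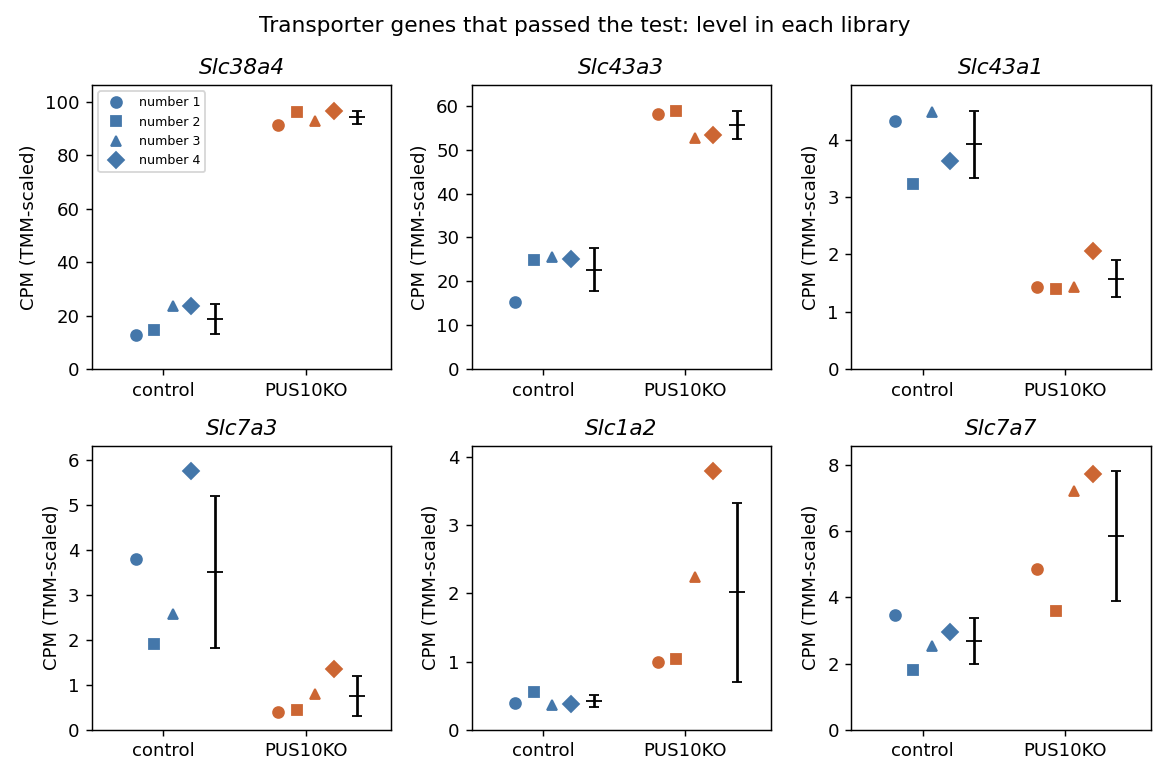
CPM of the 6 genes that passed the test, in order of adjusted p, in the 4 control (blue) and 4 PUS10KO (orange) libraries; marker shapes give the library number, and black bars the mean ± SD. In each panel the 2 groups do not overlap.

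Of the 5 Slc6a genes, whose carriers use sodium and chloride, 0 passed without the block by edgeR, beside 13% of all genes tested. DESeq2 (which gave Slc6a17 no adjusted p) and limma voom also called 0, and 0 had an unadjusted edgeR p under 0.05. Slc6a17, which loads neutral amino acids into synaptic vesicles, had 8.37, 3.06, 3.45 and 3.16 CPM across control libraries 1 to 4, against 6.67, 1.67, 0.7599 and 0.541 CPM across PUS10KO libraries 1 to 4. Library 1 was the highest of both genotypes. It was lower in PUS10KO in each pair, by a log2 fold change of -0.92 (edgeR adjusted p = 0.493) and of -1.26 with the block (edgeR adjusted p = 0.023). Without the block, leaving out PUS10KO 1 gave -2.16 (edgeR adjusted p = 0.0428) and leaving out control 1 gave -0.43 (edgeR adjusted p = 0.793). The taurine carrier Slc6a6 had 166 ± 31.7 CPM in control against 170.1 ± 44.6 CPM in PUS10KO (mean ± SD, n = 4) and the glycine carrier Slc6a9 (GlyT1) 10.96 ± 4.58 CPM in control against 10.5 ± 4.54 CPM in PUS10KO (mean ± SD, n = 4). Their log2 fold changes were 0.035 (95% confidence interval -0.45 to 0.52) and -0.065 (-0.90 to 0.77). The proline carrier Slc6a7 had 79 counts in control and 62 in PUS10KO, with a log2 fold change of -0.42 (-1.58 to 0.73).

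Of the 2 proton-coupled carriers of the Slc36a family 0 passed by these tools without the block, beside 13% of all genes tested by edgeR. An unadjusted edgeR p under 0.05 was found for 0 of them. Slc36a1 (PAT1), which exports small amino acids from lysosomes, had 15.8 ± 4.13 CPM in control against 11.9 ± 2.35 CPM in PUS10KO (mean ± SD, n = 4), and a log2 fold change of -0.41 (edgeR adjusted p = 0.3, or 0.0488 with the block). Slc36a4 (PAT4) had 41.1 ± 10.4 CPM in control against 44.4 ± 9.57 CPM in PUS10KO (mean ± SD, n = 4), and a log2 fold change of 0.11 (95% confidence interval -0.36 to 0.58).

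**Figure D4:**
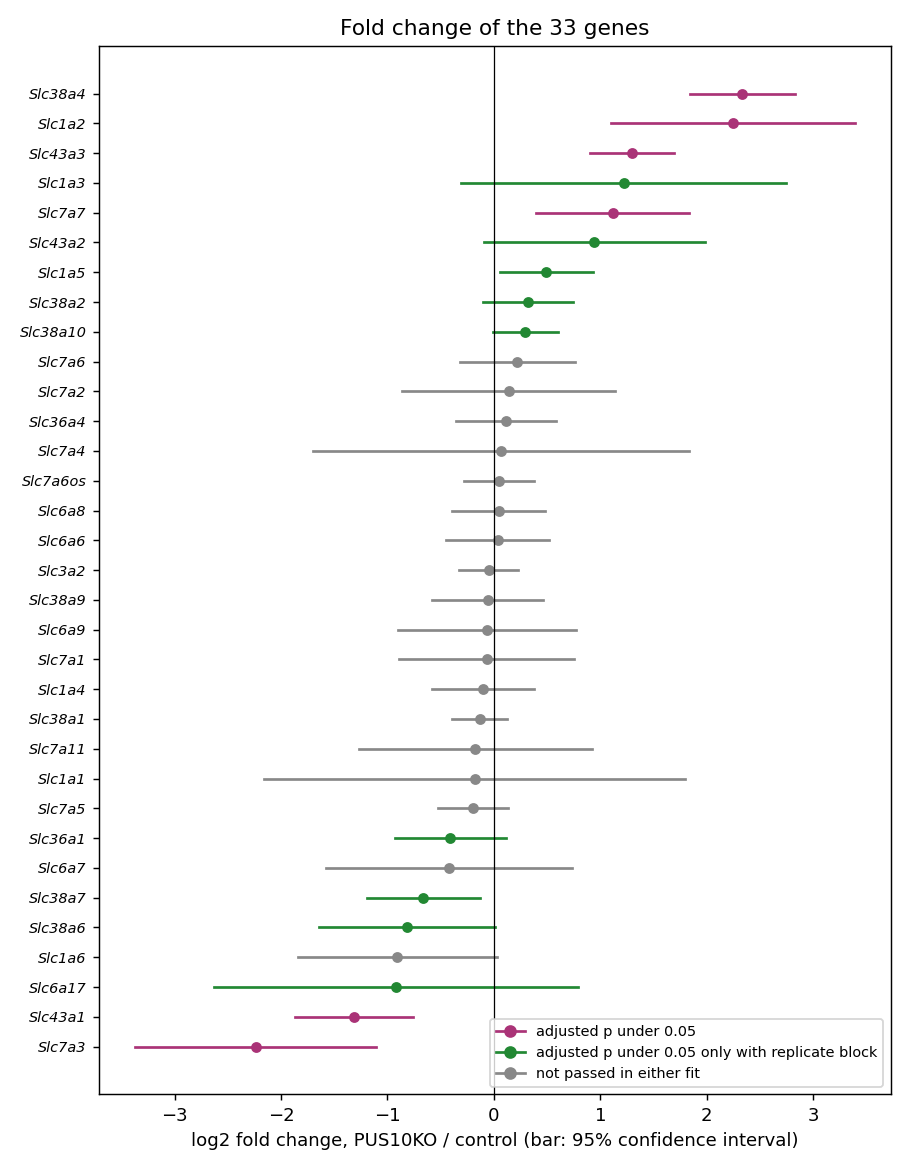
Log2 fold change of PUS10KO against control with its 95% confidence interval for the 33 genes, ordered by size, from the edgeR fit without the block. Colour marks the 6 genes that passed in that fit, the 9 that passed only with the replicate block and the 18 that passed in neither.

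Several of these genes varied with library number in both genotypes. In 9 of the 33 (27.3%) the 4 libraries numbered 1 and 2 did not overlap the 4 numbered 3 and 4, which held for 25.2% of all genes tested. Of these 9, 5 were higher in libraries 3 and 4 (Slc7a2, Slc7a4, Slc6a9, Slc1a4 and Slc38a9) and 4 lower (Slc7a1, Slc7a6, Slc7a6os and Slc6a6). The mean of Slc7a2 was 62.97 CPM in libraries 1 and 2 and 149 CPM in libraries 3 and 4, and that of Slc7a1 78.3 and 41.1 CPM. What a number stands for is not stated. Markers of other cell types moved as well. Of 5 tested smooth or skeletal muscle markers 3 fell between genotypes, beside 7.11% lower of all genes tested. These were Acta2, Tagln and Myh11 (log2 fold changes of -2.16, -2.20 and -5.54). Across control libraries 1 to 4 Acta2 had 14070, 14958, 6166 and 4904 CPM, and Tagln 5198, 4618, 1984 and 1672 CPM. Cnn1 and Des did not pass the test. Cnn1 went the other way, with means of 16.3 CPM in control and 44.9 CPM in PUS10KO (log2 fold change 1.46, edgeR adjusted p = 0.146). Des had a log2 fold change of -0.23 (edgeR adjusted p = 0.699). Summed levels of the 5 were 6585 to 19674 CPM in control and 2564 to 3543 CPM in PUS10KO, mostly from Acta2 and Tagln. The 1 tested epithelial marker, Krt19, fell by a log2 fold change of -2.88 (edgeR adjusted p = 0.00169). The part of such cells in the values of these genes was not tested. The 6 genes called between genotypes could not be parted by library number, because their control and PUS10KO values did not overlap.

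**Figure D5:**
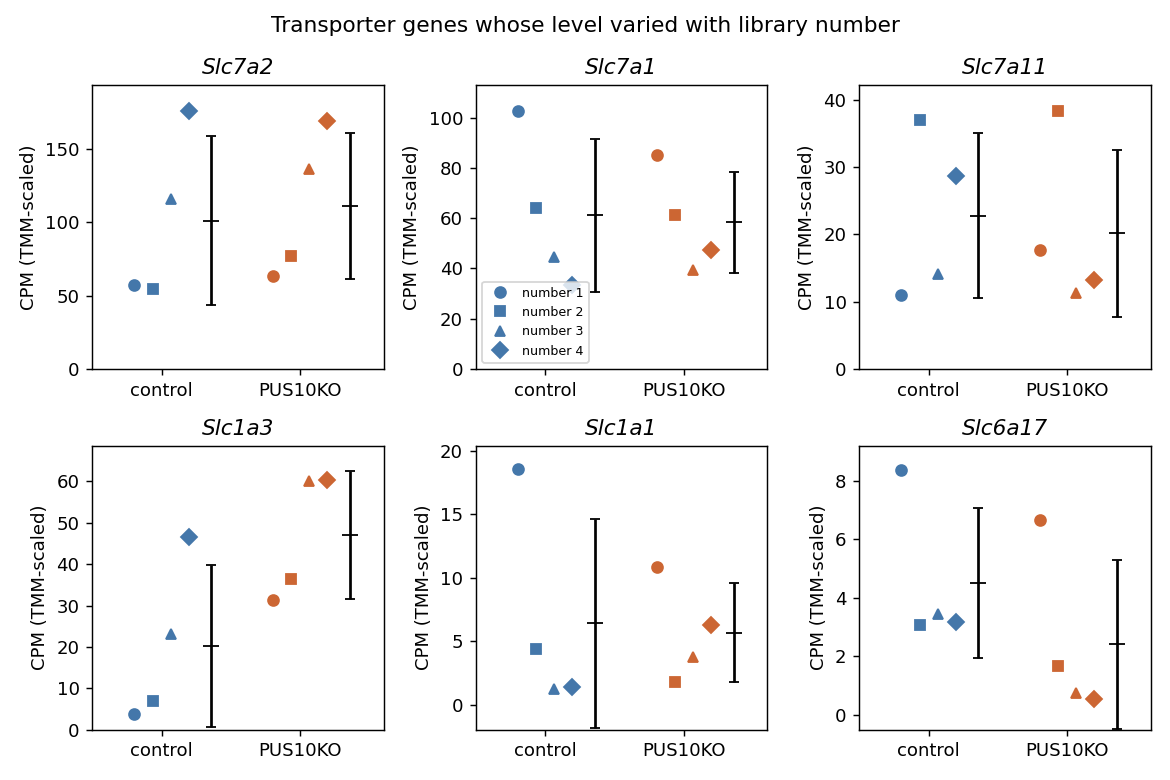
CPM of 6 genes that varied with library number, in control (blue) and PUS10KO (orange), with the number given by the marker shape and the mean ± SD in black; an SD bar that reaches below 0 shows only that the SD exceeded the mean. Slc7a2 is higher in libraries 3 and 4 of both genotypes and Slc7a1 lower, while Slc1a1 is lower in PUS10KO in pairs 1 and 2 and higher in pairs 3 and 4. In Slc7a11, Slc1a3, Slc1a1 and Slc6a17 libraries 1 and 2 overlap libraries 3 and 4.

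Other genes of amino acid transport and use were counted in the same way, beside 13% of all genes tested called without the block and 39% with it. Of 15 tested carriers of amino acids or peptides in other families, such as those of mitochondria and vesicles, edgeR, DESeq2 and limma voom called 0, and 0 had an unadjusted edgeR p under 0.05; with the block 1 rose and 1 fell (13.3%). Of 15 tested partners and regulators of carriers at the membrane 1 rose, 2 fell and 12 did not pass (20% called, beside 13% of all genes tested). Arrdc4, an arrestin-like adaptor of ubiquitin ligases, had 32.2 ± 4.79 CPM in control against 76.05 ± 12.1 CPM in PUS10KO (mean ± SD, n = 4), a log2 fold change of 1.24 (edgeR adjusted p = 0.00154). The ubiquitin ligase gene Nedd4l had 49.4 ± 10.8 CPM in control against 23.3 ± 2.66 CPM in PUS10KO (mean ± SD, n = 4), a log2 fold change of -1.08 (edgeR adjusted p = 0.00402). The kinase gene Sgk3 had 4.29 ± 1.88 CPM in control against 0.434 ± 0.361 CPM in PUS10KO (mean ± SD, n = 4), a log2 fold change of -3.31 (edgeR adjusted p = 0.00647). With the block 3 of these 15 rose and 8 fell (73.3%, beside 39% of all genes tested).

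Among 40 tested genes of amino acid sensing upstream of mTORC1 2 rose, 2 fell and 36 did not pass, 10% called beside 13% of all genes tested. Rragd, a Rag GTPase gene, had 4.05 ± 1.58 CPM in control against 1.03 ± 0.249 CPM in PUS10KO (mean ± SD, n = 4), with a log2 fold change of -1.96 (edgeR adjusted p = 0.00817). The arginine sensor gene Castor1 fell and the related Castor2 rose, with log2 fold changes of -0.64 and 0.84 (edgeR adjusted p = 0.0335 and 0.0314). Mios, of the GATOR2 complex, had 0.48 (edgeR adjusted p = 0.0278). When single libraries were omitted, Rragd was called in all 8 fits, Mios in 3, Castor1 in 2 and Castor2 in 0 (adjusted p up to 0.107 by edgeR). With the block 9 rose and 8 fell (42.5%, beside 39%).

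Of 37 tested genes of the ATF4 pathway and amino acid synthesis 1 rose, 2 fell and 34 did not pass (8.11% called, beside 13% of all genes tested; median log2 fold change -0.22). Cbs, which makes cystathionine from homocysteine and serine, had 0.5997 ± 0.306 CPM in control against 3.43 ± 1.03 CPM in PUS10KO (mean ± SD, n = 4), with a log2 fold change of 2.50 (edgeR adjusted p = 0.00391). Got1, the cytosolic aspartate aminotransferase gene, had 89.9 ± 13.2 CPM in control against 44.1 ± 12.5 CPM in PUS10KO (mean ± SD, n = 4), with a log2 fold change of -1.03 (edgeR adjusted p = 0.0117). Ddit3 (CHOP), a stress-induced transcription factor, had 35.7, 48.7, 83.2 and 96.6 CPM across control libraries 1 to 4, against 20.3, 21.5, 38.03 and 33.7 CPM across PUS10KO libraries 1 to 4, with a log2 fold change of -1.22 (edgeR adjusted p = 0.0489), with overlap between the groups. Its call held in 1 of 8 fits that omitted a library, the one without control 1 (edgeR adjusted p = 0.023, and up to 0.124 in the others). With the block 8 rose and 13 fell (56.8%, beside 39% of all genes tested).

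Of 25 tested genes of glutamine, cystine and glutathione metabolism 2 rose, 1 fell and 22 did not pass (12% called, beside 13% of all genes tested). With the block 7 rose and 3 fell (40%, beside 39%). Nqo1, a quinone reductase gene of the antioxidant response, had 71.2, 91.1, 93.1 and 82.5 CPM across control libraries 1 to 4, against 361, 406, 199.8 and 156 CPM across PUS10KO libraries 1 to 4, with a log2 fold change of 1.73 (edgeR adjusted p = 0.0059). Gpx4, which reduces lipid peroxides with glutathione, had 211 ± 34.9 CPM in control against 128 ± 18.7 CPM in PUS10KO (mean ± SD, n = 4), with a log2 fold change of -0.72 (edgeR adjusted p = 0.0181), and lies on chromosome 10, whose median log2 fold change was -0.25. With that median taken off, Gpx4 had -0.47 (edgeR adjusted p = 0.115), and its call was also lost without control 3 or without PUS10KO 2 (up to 0.0565). Ggt7, of the gamma-glutamyltransferase family, had 0.74 (edgeR adjusted p = 0.0106).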

How the data were processed

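RNA sequencing counts of 8 libraries of mouse embryonic fibroblasts, 4 per genotype, were analysed. The authors deposited raw counts for each gene and library. STAR 2.7.8a, DESeq2 and mm10 are named in the submitters' processing notes; how reads were counted, with which strand setting and annotation, is not given in any source used here. A deposited normalized table was not used, because its scale is not stated and differences between library numbers had been removed from it. For positions and exonic lengths, 99.7% of rows were matched to GENCODE M21 (GRCm38) by symbol or RefSeq synonym, and promoter sequences were taken from RefSeq (GRCm38.p6). Exonic length is the union of all annotated exons, which can overstate the length of the expressed transcripts.

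These counts went into edgeR 4.0.16 under R 4.3.3, with filterByExpr, TMM scaling and the robust quasi-likelihood test with genotype as the only term, Benjamini-Hochberg adjusted over 11909 genes, at an adjusted p under 0.05. The SE of a fold change was derived from its F statistic. Pair differences used a pseudocount of 0.5 CPM. The scripts were tested on simulated data. Alternatives were DESeq2 1.42.0, limma 3.58.1 (voom), upper-quartile scaling, no filter, the replicate block, an offset by chromosome median and leaving out each library; fits of libraries 1 and 2 only and 3 and 4 only were added after seeing the data.

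Titles carry the numbers 1 to 4 in each genotype. Libraries with the same number deviated alike from their genotype's mean (r = 0.681, 0.722, 0.633 and 0.687 over 11909 genes, which are not independent replicates), against at most 0.303, 0.042, 0.582 and 0.503 with another number, so those of 1 number were treated as a pair. This pairing comes from the counts, not from the labels, and entered only the block fit and the pair differences. Every pair of libraries within a genotype differed beyond sampling noise (chi-square per degree of freedom at least 17.93). The members, lists and rules were chosen with earlier results of these data known. All 33 members are named; in other lists up to 4 called genes by lowest p, and the markers and overlapping genes named were chosen after their values were seen. Lists are described by counts, with no set test.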

Additional observations from a re-analysis of the deposited data

Results flagged for a closer look

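In 7 cases 1 library stood apart from the other 3 of its genotype by more than Dixon's 95% critical value for 4 samples. Chance flags about 1 in 20 such groups, and 66 groups were examined for the 33 genes. The lowest value of Slc43a3 in control was that of control 1, at 15.19 CPM, against 24.95 to 25.45 CPM in the other 3 libraries, and without control 1 its log2 fold change was 1.15. Slc43a1 was highest in PUS10KO 4 among PUS10KO libraries, at 2.056 CPM, against 1.392 to 1.435 CPM in the other 3 libraries. Slc6a17 was highest in control 1, at 8.371 CPM, against 3.065 to 3.452 CPM in the other 3 libraries. In control 2 Slc1a2 was at 0.5472 CPM, against 0.3606 to 0.3894 CPM in the other 3 libraries. PUS10KO 1 held the highest PUS10KO values of Slc6a8, at 106.4 CPM, against 80.96 to 84.6 CPM in the other 3 libraries, and of Slc36a4, at 58.61 CPM, against 37.78 to 40.65 CPM in the other 3 libraries. Slc3a2 was lowest in PUS10KO 3, at 192.5 CPM, against 219.9 to 225.5 CPM in the other 3 libraries.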

How the results depend on the processing

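Of the 6 transporter genes called, Slc38a4, Slc43a3, Slc43a1, Slc7a3 and Slc1a2 kept direction and call under DESeq2, limma voom, upper-quartile scaling, no filter, the chromosome offset and the replicate block. Slc7a7 lost its call with upper-quartile scaling (edgeR adjusted p = 0.063), the chromosome offset (0.0969) and limma voom (limma adjusted p = 0.0718). The block took none of these 6 calls away. Of the other genes named, Ddit3 lost its call with upper-quartile scaling (edgeR adjusted p = 0.0688), the chromosome offset (0.134) and limma voom (0.0608), Castor1 with upper-quartile scaling (0.0663), and Castor2 and Gpx4 with the chromosome offset (0.095 and 0.115). With the replicate block 9 of the 33 genes rose and 6 fell, and 2273 and 2368 of all genes, against 703 and 847 without it. DESeq2 called 1083 genes that rose, and the chromosome offset left 552 that fell. Leaving out 1 library gave 2 to 4 of the 33 genes that rose (2 without control 3 or PUS10KO 3), 1 to 3 that fell (1 without PUS10KO 2 or 3), 492 to 638 of all genes that rose and 520 to 728 that fell (560 without PUS10KO 2 and 520 without PUS10KO 3). Libraries 1 and 2 only, an alternative chosen after seeing the data, left 3 of the 33 genes that rose (Slc38a4, Slc43a3 and Slc1a3) and 0 that fell by edgeR (4 at an unadjusted p under 0.05; DESeq2 and limma were not run on these), and of all genes 347 that rose and 333 that fell; libraries 3 and 4 only gave 7 that rose and 5 that fell, and 1333 and 1506 of all genes. These fits hold 2 libraries a genotype. In libraries 1 and 2 the calls of Slc7a3, Slc43a1, Slc1a2 and Slc7a7 were lost (edgeR adjusted p = 0.0504, 0.0786, 0.204 and 0.38), with log2 fold changes of 1.12 for Slc1a2 and 0.68 for Slc7a7, against 2.98 and 1.43 in libraries 3 and 4.

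Reversed directions were seen only in genes that the test on all 8 libraries did not call. The chromosome offset gave 0.061 for Slc3a2 and -0.15 for Slc6a8, and for Slc1a1 the block gave 0.26 and limma voom 0.33. Libraries 1 and 2 only gave 0.0047 for Slc3a2, -0.034 for Slc6a8, 0.23 for Slc7a11 and 0.031 for Slc6a9. Libraries 3 and 4 only gave -0.037 for Slc7a4, 1.89 for Slc1a1 (called there, edgeR adjusted p = 0.00281), -0.10 for Slc6a6, -0.057 for Slc7a6os, 0.15 for Slc7a1 and 0.16 for Slc38a9. Leaving out 1 library gave -0.70 to 1.27 for Slc1a1, -0.27 to 0.090 for Slc1a4, -0.052 to 0.31 for Slc36a4, -0.22 to 0.080 for Slc38a9, -0.097 to 0.016 for Slc3a2, -0.11 to 0.16 for Slc6a6, -0.055 to 0.25 for Slc6a8, -0.39 to 0.20 for Slc6a9, -0.31 to 0.32 for Slc7a1, -0.69 to 0.16 for Slc7a11, -0.13 to 0.56 for Slc7a2, -0.42 to 0.94 for Slc7a4 and -0.024 to 0.12 for Slc7a6os. The cause was not tested. Depth limits Slc1a2, Slc7a4 and Slc6a7 most, with under 100 counts over the control libraries.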
